A study of Homo sapiens with 6 samples.

Results

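Transcripts of 8 secreted and cell surface proteins of blood clotting and complement were followed in A549 cells after knockdown of CEP20, a centrosomal protein. They encode the 3 chains of fibrinogen (FGA, FGB, FGG), the protease inhibitor alpha-1-antitrypsin (SERPINA1), complement component C3 and factor B (CFB), tissue factor (F3) and the endothelial protein C receptor (PROCR). The genes were chosen by name as liver-type proteins that this line makes, and they are 8 of the 60624 genes in the expression table. A549 is a cell line established from a human lung adenocarcinoma and is labelled as non-small cell lung cancer. RNA was sequenced from 3 siCTR samples, which had received a control small interfering RNA (siRNA), and from 3 siCEP20 samples, which had received siRNA against CEP20. Both groups were otherwise unmodified A549 cells and were transfected for 3 days, although 1 label field calls the treatment a plasmid transfection. Which of the CEP20 siRNAs of the study was used is not given by the labels, so effects of the siRNA sequence and of CEP20 loss cannot be told apart. The labels also do not say whether the 3 samples of a group came from separate cultures, so the p-values measure the spread between these samples, which may be technical.

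Most proteins of the clotting and complement cascades are made by hepatocytes and released into plasma. Tissue factor starts clotting when it meets factor VII, the cascade ends with thrombin, and thrombin cuts fibrinogen into fibrin, the mesh of a clot. A fibrinogen molecule holds each of its chains in a pair, so a cell that secretes it needs all 3 of them. Fibrinogen, C3, factor B and alpha-1-antitrypsin belong to the acute-phase proteins, whose transcripts liver and some epithelial cells raise under interleukin-6 or interleukin-1, through STAT3, C/EBP and NF-kB factors. Lung adenocarcinoma lines such as A549 can transcribe several of these genes.

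The fibrinogen genes lie side by side within 49.96 kb of chromosome 4 in the order FGB, FGA, FGG. Here 3 promoters are printed because they belong to a pair of neighbouring genes that differed in response (FGA and FGB) and to the strongest responder outside the fibrinogen locus with a sequence in the reference (F3). Each line gives 100 bases before the start of transcription in RefSeq (GRCh38.p14), 5′ to 3′ on the strand of the gene. Capitals mark matches to the motifs searched that lie wholly within the 100 bases. Matches cut by the 5′ edge, 1 in FGB (-101 to -94) and 1 in F3 (-104 to -99), stay in lower case.

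FGA, chr4:154590743-154590842, minus strand: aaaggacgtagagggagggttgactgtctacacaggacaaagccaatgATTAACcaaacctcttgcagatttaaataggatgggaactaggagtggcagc
FGB, chr4:154562880-154562979, plus strand: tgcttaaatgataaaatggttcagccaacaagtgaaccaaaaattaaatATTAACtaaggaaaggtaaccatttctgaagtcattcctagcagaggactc
F3, chr1:94541760-94541859, minus strand: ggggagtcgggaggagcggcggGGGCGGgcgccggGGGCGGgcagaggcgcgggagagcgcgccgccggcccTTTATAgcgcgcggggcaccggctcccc

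In FGA and FGB the capitals are a match to the motif GTTAAT, known from promoters of liver genes, on the opposite strand, at bases -52 to -47 of FGA and -51 to -46 of FGB, counted back from the start. RefSeq gives FGB a second start further downstream, where the gene begins in GENCODE, and from that start the motif lies at -82 to -77, so the near-equal positions hold for the upstream start of FGB alone. In F3 they are 2 GC boxes (GGGCGG, an SP1 motif) and a TATA box (TATAAA, opposite strand). On both strands, 7 motifs were searched in the 250 bases before each start, for the 7 members with a sequence in the RefSeq table. The motif GTTAAT stood in 6.23% of the 35116 promoters of the table and in 3 members, FGA, FGB and SERPINA1 (from its downstream start). The C/EBP motif TTGCNNAA stood in 9.05% of all promoters and in FGA and FGB. The interleukin-6 response motif CTGGGA was frequent, in 28.7% of all promoters and in 5 members (FGA, FGB, FGG, SERPINA1 and PROCR). The AP-1 motif TGANTCA stood in 6.57% of all promoters and, of the members, in F3 alone, at 2 places. The NF-kB motif GGANNTTCC stood in 3.84% of all promoters and in CFB and F3. GC boxes stood in 42.6% of all promoters and in F3, PROCR and SERPINA1, and TATA boxes in 10.7% of all promoters and in CFB, F3 and PROCR. A match is a run of letters only, and binding was not measured.

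The deposited values are TPM, relative transcript numbers that take transcript length into account and add up to 1000000 in each library, so the depth of the samples is unknown. Between 14429 and 14987 genes reached 1 TPM in a library. Genes whose mean reached 1 TPM were tested with limma on log2(TPM + 1), a scale that understates the change of low genes. To be called, a gene had to change by more than 1.5-fold upwards or to below 0.67 of the siCTR level, with an adjusted p below 0.05. CEP20 was at 29.2, 30.5 and 35.1 TPM with siCTR and at 16.2, 15.3 and 17.3 TPM with siCEP20, and was called lower with a log2 fold change of -0.92 (SE 0.0915, limma adjusted p = 0.000205). Over all 14778 tested genes the log2 fold changes had a median of 0.13, and median-of-ratios scaling moved it to -0.0052. Of all tested genes, 1659 were called higher and 682 lower, so 70.9% of calls were higher, against 43.8% with that scaling. All 6 epithelial markers (KRT7, KRT8, KRT18, KRT19, CDH1 and EPCAM) were expressed, with a sum of 7029 to 7333 TPM with siCTR and 8474 to 8709 TPM with siCEP20 that is mostly keratin. CDH1 (E-cadherin) and EPCAM, the least abundant of them, were called higher, at 11.8 ± 0.682 and 23.2 ± 1.18 TPM and at 1.04 ± 0.205 and 3.38 ± 0.427 TPM (SD, n = 3 each, limma adjusted p = 0.000128 and 0.00104).

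One library stood apart for liver transcripts, which touches SERPINA1. In siCEP20 replicate 2, 7 genes of a list of 41 other liver-type secreted proteins were listed at 0 while the 5 other libraries had values above 0. They were ALB, APOA1, APOA2, APOB, A2M, AGT and ORM1. Over all genes this library did not stand apart. In it, 12 genes that reached 1 TPM in each of the 5 other libraries were listed at 0, against 10 to 14 such genes in each other library. ALB, the albumin gene, was at 6.62, 13.9 and 11.6 TPM with siCTR and at 9.89, 0 and 11.5 TPM with siCEP20. AFP, which encodes alpha-fetoprotein, was at 3.78, 6.64 and 6.32 TPM with siCTR and at 6.17, 0.82 and 6.24 TPM with siCEP20. AHSG, the fetuin-A gene, was at 1.70, 3.12 and 3.41 TPM and then 1.33, 0.020 and 3.16 TPM. Of the 37 genes of this list with any value above 0, siCEP20 replicate 2 held the lowest value of 14, and siCTR replicate 1 that of 6, against 1 to 3 in each other library. Not every gene of the list was low in siCEP20 replicate 2, since SAA1 (4.09 TPM) and APOM (6.10 TPM) were highest there. A list of 6 hepatocyte markers had a sum of 8.66, 15.95 and 14.6 TPM with siCTR and 12.1, 1.497 and 13.4 TPM with siCEP20. Nearly all of it was ALB and ASGR1, since CYP3A4 was listed at 0 in all 6 libraries and TAT in all but siCEP20 replicate 3 (0.095 TPM). Whether the low values of these transcripts in the 5 other libraries are expression of the A549 cells, or whether siCEP20 replicate 2 differed in its cells or its RNA, cannot be told apart from these values.

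**Figure D1:**
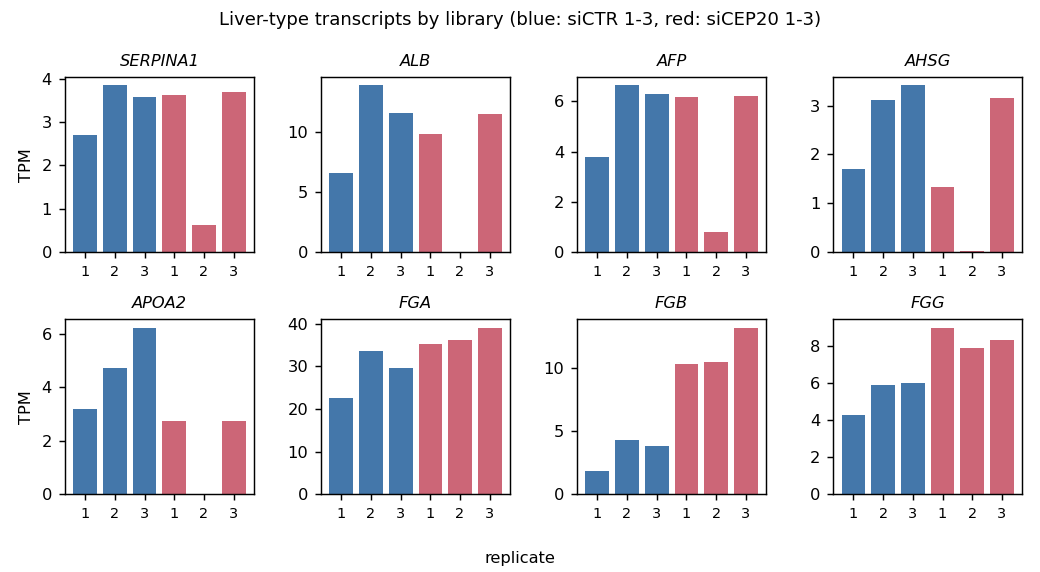
TPM of 8 liver-type transcripts in each library, 3 siCTR bars in blue and 3 siCEP20 bars in red, each panel with its own axis from 0. SERPINA1, ALB, AFP, AHSG and APOA2 are lowest in siCEP20 replicate 2 (ALB and APOA2 at 0), whereas FGA, FGB and FGG in that library stand above every siCTR library. SAA1 and APOM, not shown, are highest in that library.

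Knockdown samples held more transcript of the fibrinogen beta chain, of C3 and of tissue factor, while factor B, alpha-1-antitrypsin and the protein C receptor were not called. Of the 8 genes, all tested, 3 were called higher and 0 lower (over all tested genes, 11.2% were called higher and 4.61% lower). At an adjusted p under 0.05 alone, 5 were higher and 0 lower, against 30.2% and 13.2% of all tested genes. In the same 5 genes, every siCEP20 value lay above every siCTR value, which held for 38.4% of all tested genes. The median log2 fold change of the 8 was 0.47. These counts describe the 8 genes and do not test them as a group. In bulk RNA, a change in the number of cells that express a gene and a change in RNA per cell cannot be told apart.

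**Figure D2:**
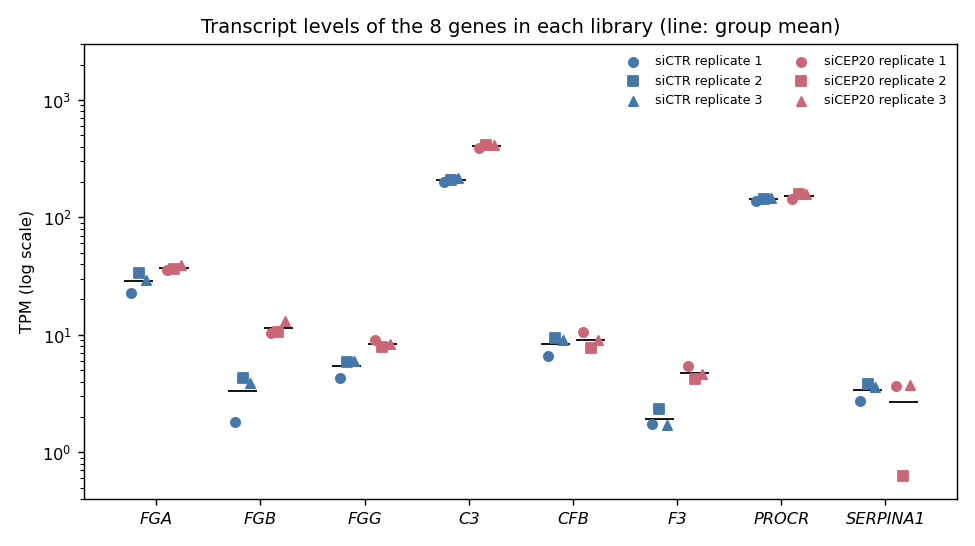
TPM on a log axis of the 8 genes in the 6 libraries, siCTR in blue and siCEP20 in red, with the replicate shown by the symbol and a line at the group mean (n = 3). FGA, FGB, FGG, C3 and F3 have separate groups, and SERPINA1 in siCEP20 replicate 2 (0.63 TPM) lies apart from the 5 other libraries.

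All 3 fibrinogen transcripts had higher values in the siCEP20 libraries, by unequal amounts, and only that of the beta chain was called. FGB (ENSG00000171564, chr4:154563011-154572807, plus strand, hg38), which encodes the beta chain, was at 1.81, 4.32 and 3.86 TPM with siCTR and at 10.3, 10.5 and 13.2 TPM with siCEP20. The highest siCTR value was well under the lowest siCEP20 value, and siCTR replicate 1 was the lowest of all 6. Its mean rose from 3.33 ± 1.33 to 11.3 ± 1.63 TPM (SD, n = 3 each), and the log2 fold change was 1.56 (SE 0.233, limma adjusted p = 0.00127), and without siCTR replicate 1 the log2 fold change was 1.27 (adjusted p = 0.00107).

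FGG (ENSG00000171557, chr4:154604134-154612967, minus strand) encodes the gamma chain, which carries a platelet binding site. It was at 4.29, 5.91 and 5.98 TPM with siCTR and at 8.98, 7.88 and 8.33 TPM with siCEP20. The groups did not overlap, and siCTR replicate 1 was again the lowest. The means were 5.39 ± 0.958 and 8.39 ± 0.550 TPM (SD, n = 3 each), and the log2 fold change of 0.57 (SE 0.133, limma adjusted p = 0.0102) corresponds to a 1.48-fold difference, just short of the threshold of 1.5. It would have been called without siCTR replicate 2 (0.63), siCTR replicate 3 (0.63) or siCEP20 replicate 2 (0.60).

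FGA (ENSG00000171560, chr4:154583126-154590742, minus strand) encodes the alpha chain and had the highest level of the 3 per transcript length. It was at 22.7, 33.6 and 29.5 TPM with siCTR and at 35.3, 36.2 and 39.1 TPM with siCEP20. The groups were separate, but siCTR replicate 2 came close to the lowest siCEP20 library. The means were 28.6 ± 5.51 and 36.9 ± 1.98 TPM (SD, n = 3 each), and the log2 fold change was 0.37 (SE 0.131, limma adjusted p = 0.0498), so FGA was not called. The adjusted p was over 0.05 when any library other than siCTR replicate 2 was left out (0.0738 to 0.129) and with median-of-ratios scaling (0.160).

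In the make-up of the fibrinogen transcripts the groups did not overlap. The ratio of FGA to FGB within a library was 12.5, 7.78 and 7.65 with siCTR and 3.43, 3.45 and 2.96 with siCEP20. Each siCTR library thus held far more alpha than beta chain transcript, and the excess was smaller in each siCEP20 library. FGG exceeded FGB in every siCTR library (ratios 2.37, 1.37 and 1.55) and fell short of it in every siCEP20 library (0.872, 0.7503 and 0.630). The ratio of FGA to FGG changed less, from 5.29, 5.68 and 4.93 to 3.93, 4.59 and 4.69. The mean log2 ratio differed by -1.47 for FGA to FGB, by -1.20 for FGG to FGB and by -0.27 for FGA to FGG. Each of the 3 gave p = 0.1 in a two-sided exact permutation test, the smallest p that 3 libraries against 3 allow, so none can reach 0.05 (Benjamini-Hochberg adjusted p = 0.1 for each of the 3). A ratio within a library does not depend on how libraries are scaled against each other.

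**Figure D3:**
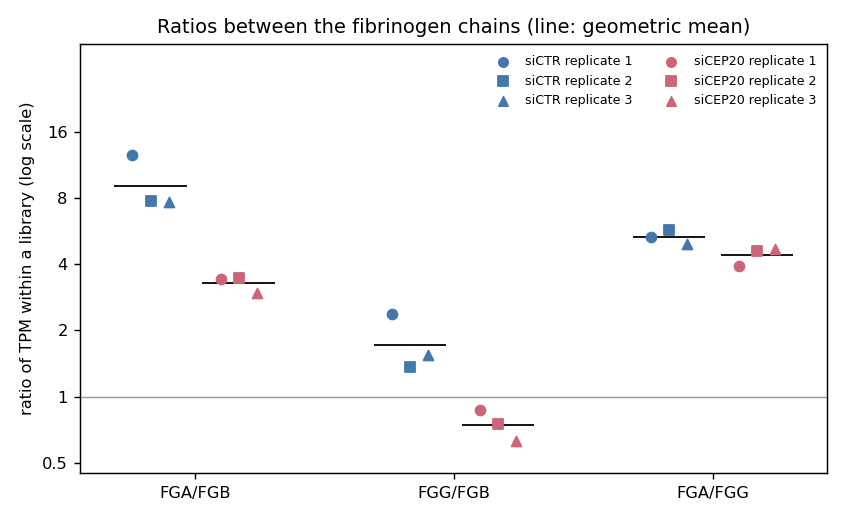
Ratios of TPM between the fibrinogen chains within each library, on a log axis, siCTR in blue and siCEP20 in red, with the geometric mean of 3 libraries as a line and a grey line at 1. The FGG to FGB ratio lies above 1 in the siCTR libraries (1.37 to 2.37) and below 1 in the siCEP20 libraries (0.630 to 0.872).

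Among the genes within 250 kb of the fibrinogen genes, PLRG1, a splicing factor gene 12.6 kb away, was the only other to reach a mean of 1 TPM. PLRG1 was at 27.9, 27.3 and 29.3 TPM with siCTR and at 31.0, 33.4 and 38.8 TPM with siCEP20, with a log2 fold change of 0.27 (limma adjusted p = 0.0398), and was not called. LRAT, on the FGG side at 14.0 kb, stayed at or under 0.18 TPM. Of all tested genes outside the lists, ZNF462, RNF111 and LINC00862 had the profile most like the mean of the fibrinogen genes over the 6 libraries (root mean square differences of 0.0368, 0.0796 and 0.0865 on the log2 scale). ZNF462 was at 2.92, 4.71 and 4.399 TPM with siCTR and at 7.60, 7.59 and 7.99 TPM with siCEP20. Its lowest value, in siCTR replicate 1 as for the fibrinogen genes, follows from its choice by likeness over the same 6 libraries.

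C3 (ENSG00000125730, chr19:6677704-6730562, minus strand) encodes the protein on which all complement pathways converge and was the most abundant of the 8. It was at 201, 208 and 218 TPM with siCTR and at 388, 413 and 413 TPM with siCEP20. The values hardly varied within a group, and the groups were far apart. The group means were 208.8 ± 8.75 and 405 ± 14.2 TPM (SD, n = 3 each), and the log2 fold change was 0.95 (SE 0.0541, limma adjusted p = 3.12e-05). C3 overlaps GPR108 on the same strand, which was at 81.8 to 84.0 TPM with siCTR and 90.8 to 96.5 TPM with siCEP20, so a shared part of the reads could be split between them, and the same holds for an unnamed long noncoding RNA gene at 0.78 to 1.65 TPM with siCTR and 3.99 to 5.999 TPM with siCEP20.

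CFB (ENSG00000243649, chr6:31945650-31952086, plus strand) encodes factor B, the protease subunit that joins C3b in the alternative pathway. It was at 6.54, 9.32 and 9.08 TPM with siCTR and at 10.6, 7.73 and 8.95 TPM with siCEP20. The groups overlapped. The log2 fold change was 0.12 (SE 0.155, limma adjusted p = 0.569) with no sign held across scalings, since it was -0.02 with median-of-ratios scaling. C3 and CFB thus gave different readouts, although the difference between them was not tested.

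F3 (ENSG00000117525, chr1:94529173-94541759, minus strand) encodes tissue factor, the membrane receptor that starts clotting. It was at 1.75, 2.33 and 1.71 TPM with siCTR and at 5.37, 4.24 and 4.61 TPM with siCEP20. Every siCEP20 library was above every siCTR library by a wide gap. The group means were 1.93 ± 0.348 and 4.74 ± 0.577 TPM (SD, n = 3 each), and the log2 fold change was 0.97 (SE 0.147, limma adjusted p = 0.00132). F3 was low in both groups, and with a pseudocount of 0.1 in place of 1 the log2 fold change was 1.26.

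PROCR (ENSG00000101000, chr20:35172072-35216240, plus strand) encodes the receptor that presents protein C for activation by thrombin and thrombomodulin. It was at 139, 144 and 146 TPM with siCTR and at 142, 159 and 159 TPM with siCEP20. The groups overlapped through siCEP20 replicate 1. The log2 fold change was 0.10 (SE 0.0618, limma adjusted p = 0.223), near the median of all tested genes, and was -0.06 with median-of-ratios scaling. PROCR overlaps MMP24OS on the opposite strand, which was at 49.998 to 51.7 TPM with siCTR and 74.4 to 90.5 TPM with siCEP20, so reads could be shared between them unless strand was used. The study's methods describe a library in which the second strand was removed and an alignment with default settings, the labels name another library kit, and whether strand was used in quantification is not given in the sources used here.

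SERPINA1 (ENSG00000197249, chr14:94376747-94390693, minus strand) encodes the main inhibitor of neutrophil elastase. It was at 2.71, 3.84 and 3.59 TPM with siCTR and at 3.63, 0.63 and 3.70 TPM with siCEP20. The 5 other libraries lay between 2.71 and 3.84 TPM, and siCEP20 replicate 2, the library in which ALB was listed at 0, lay far below them. The log2 fold change was -0.40 (SE 0.383, limma adjusted p = 0.427) with all libraries and 0.10 (adjusted p = 0.671) without siCEP20 replicate 2. The 3 genes called higher had log2 fold changes of 1.60 (FGB), 0.98 (C3) and 1.04 (F3) without that library.

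**Figure D4:**
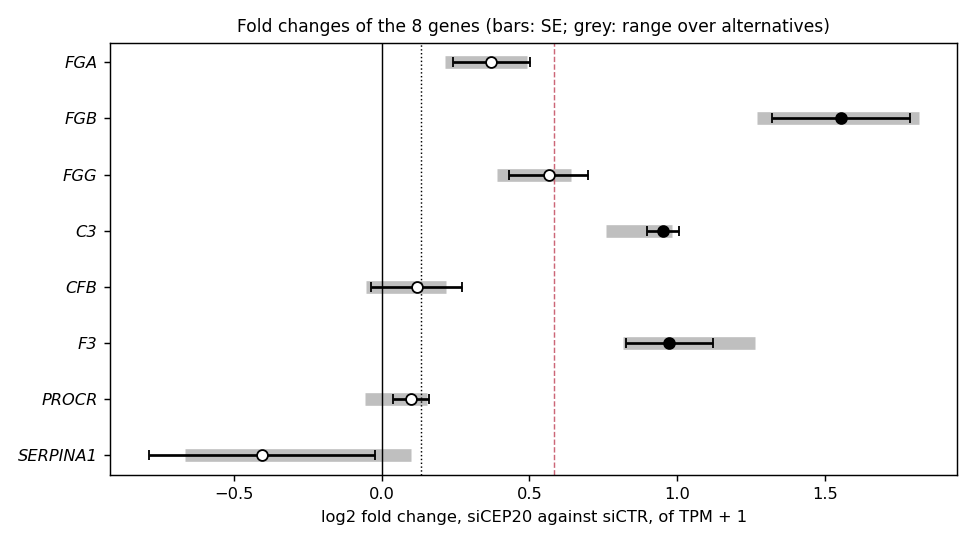
Log2 fold change (siCEP20 against siCTR, TPM + 1) of the 8 genes with its SE, filled where called higher, over a grey bar that spans the alternatives tried. The solid line marks 0, the dotted line the median of all tested genes (0.13) and the dashed line a fold change of 1.5. FGB, C3 and F3 lie beyond the dashed line under every alternative, and the bars of CFB, PROCR and SERPINA1 cross 0.

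In sum over the 8 genes, the TPM was 380, 411 and 418 with siCTR and 605, 639 and 650 with siCEP20. The mean went from 402.8 ± 20.3 to 631 ± 23.7 TPM (SD, n = 3 each, p = 0.1 in a two-sided exact permutation test, again the smallest possible), or from 0.0403% to 0.0631% of all TPM. C3 took 51.9% of this sum on average with siCTR and 64.1% with siCEP20, whereas the share of PROCR went from 35.5% to 24.3%.

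A further 10 lists held 175 other genes of clotting, complement and the liver-type program, of which 91 were tested. In them 19 genes were called higher and 6 lower, where 11.2% and 4.61% of all tested genes were. Both shares are the background for the counts of each list below. With median-of-ratios scaling, quantile normalization and a correction for length and GC content, 11, 12 and 12 of the 91 were called higher and 6 lower each time. Over all tested genes (14778, 14778 and 14737), the same settings called 875, 923 and 901 higher and 1122, 1016 and 923 lower. Without scaling, the median of the 91 was 0.13 on the log2 scale, equal to that of all tested genes to 2 decimals. All 25 called without scaling kept their sign under these 3 scalings, and 15 of them were called under all 3.

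The clotting cascade upstream of fibrinogen was mostly silent in these cells. Of 13 zymogens and cofactors 3 were tested, 0 were called higher and 1 was called lower. That gene, F12, which encodes the contact factor XII, fell from 19.7 ± 1.35 to 11.96 ± 1.47 TPM (log2 fold change -0.68, limma adjusted p = 0.00139). F12 overlaps GRK6 on the opposite strand (28.0 to 34.0 TPM with siCTR, 26.7 to 30.02 TPM with siCEP20). F2, which encodes prothrombin, was at 0.60, 0.73 and 1.09 TPM with siCTR and at 1.41, 1.31 and 2.21 TPM with siCEP20. Its groups did not overlap, but it was not called (0.54, adjusted p = 0.0628). For F8 the log2 fold change was 0.08 (adjusted p = 0.557), which was the median of the 3 tested genes.

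Of 10 anticoagulants 5 were tested, 4 were called higher and 0 lower, with a median of 0.72 over the tested genes (11.2% of all tested genes were called higher). The 5 that were not tested were all under 1 TPM on average, and SERPIND1, the heparin cofactor II gene, was at 0.30, 0.33 and 0.52 TPM with siCTR and listed at 0 in every siCEP20 library. THBD, the thrombin receptor thrombomodulin that acts with PROCR, was at 7.13, 6.57 and 7.74 TPM with siCTR and at 20.1, 21.0 and 21.2 TPM with siCEP20. Its log2 fold change was 1.42 (SE 0.0877, limma adjusted p = 3.87e-05), and no libraries overlapped. TFPI, the inhibitor of the tissue factor and factor VIIa complex, rose from 68.7 ± 2.68 to 113.8 ± 7.28 TPM (0.72, adjusted p = 0.00015), so F3 and its inhibitor were both higher. With the same sign, TFPI was called under 1 of the 3 scalings (0.47 to 0.65). TFPI2, a related inhibitor that acts chiefly on plasmin and matrix proteases, rose from 142.9 ± 24.2 to 258 ± 33.4 TPM (0.85, adjusted p = 0.00137). The fourth was PROC, the protein C gene, named after its values were seen, which went from 1.85 ± 0.375 to 3.33 ± 0.435 TPM (0.61, adjusted p = 0.0158) and was called under 1 of the 3 scalings and neither without siCTR replicate 3 nor without siCEP20 replicate 2 (0.51 and 0.53). With median-of-ratios scaling 2 of the list (THBD and TFPI2) were called. For PROS1, the cofactor of activated protein C, the log2 fold change was 0.06 (adjusted p = 0.646).

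Of 4 protease-activated receptors, through which thrombin and other proteases signal to cells, 3 were tested, 1 was called higher and 0 lower, with a median of 0.30. F2R, the thrombin receptor, rose from 63.4 ± 5.32 to 99.7 ± 3.50 TPM (log2 fold change 0.65, limma adjusted p = 0.00036), but was called under none of the 3 scalings (0.49 with median-of-ratios scaling). F2RL1, the most abundant, was at 190.8 ± 19.8 and 234 ± 4.88 TPM (0.30, adjusted p = 0.0145) and was not called.

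In the fibrinolysis list, 8 of 12 genes were tested, 1 was called higher and 1 lower, with a median of 0.11. PLAU, the plasminogen activator urokinase, fell from 563 ± 28.6 to 341 ± 28.3 TPM (log2 fold change -0.72, limma adjusted p = 0.000182). ANXA2, a cell surface plasminogen and tissue plasminogen activator binding protein, was the most abundant, at 4809 ± 55.8 and 4559 ± 160.6 TPM (-0.08, adjusted p = 0.182).

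**Figure D5:**
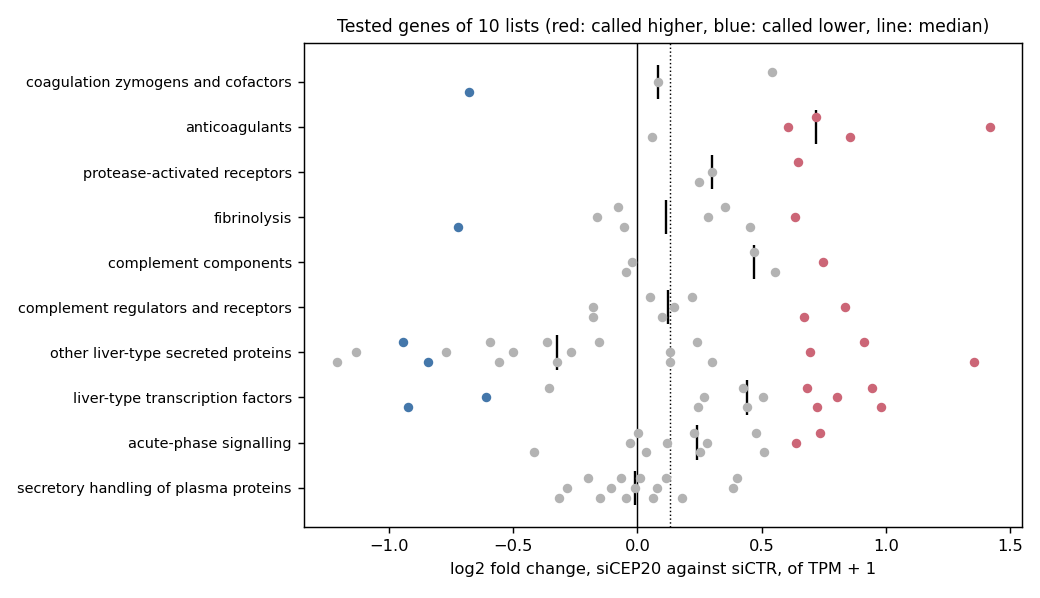
Log2 fold change (siCEP20 against siCTR, TPM + 1) of every tested gene of the 10 lists, 1 point a gene, red where called higher, blue where called lower and grey where not called. The black bar is the median of a list, the solid line 0 and the dotted line the median of all tested genes (0.13). Anticoagulants have 4 red points of 5, and the handling of plasma proteins in the secretory pathway has none of 15.

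Complement genes around C3 were few. Of 27 complement components 5 were tested, 1 was called higher and 0 lower, with a median of 0.47. C1R, a protease of the classical pathway, rose from 44.5 ± 0.536 to 75.4 ± 2.57 TPM (log2 fold change 0.75, limma adjusted p = 7.42e-05). Its partner protease C1S was the most abundant of the list, at 86.2 ± 5.16 and 127.1 ± 8.39 TPM (0.55, adjusted p = 0.000616), 1.47-fold and thus not called. C1R overlaps C1RL on the same strand, which was also higher in every siCEP20 library (31.3 to 42.3 TPM with siCTR, 45.3 to 55.3 TPM with siCEP20). C1S overlaps LPCAT3 on the opposite strand (49.99 to 57.8 and 59.4 to 66.8 TPM). For C5, which C3 fragments help to cleave, it was -0.05 (adjusted p = 0.772).

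Of 23 complement regulators and receptors 8 were tested, 2 were called higher and 0 lower, with a median of 0.12. CD55, which speeds the decay of C3 convertases on the cell surface, rose from 83.1 ± 4.30 to 149.5 ± 17.3 TPM (log2 fold change 0.83, limma adjusted p = 0.000244). CLU, the secreted chaperone clusterin that binds the terminal complex, rose from 696 ± 9.66 to 1110 ± 50.8 TPM (0.67, adjusted p = 6.28e-05), with the call lost under median-of-ratios scaling (0.51).

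Other liver-type secreted proteins were called in both directions. Of 41 genes 19 were tested, and 3 were called higher and 2 lower, against 11.2% and 4.61% of all tested genes. Their median was -0.32, against 0.13 over all tested genes. Without siCEP20 replicate 2 the medians were -0.03 and 0.11, with 3 of the list called higher and 3 lower. CP, the copper ferroxidase ceruloplasmin and an acute-phase protein, rose from 46.5 ± 4.90 to 119.9 ± 4.67 TPM (log2 fold change 1.35, limma adjusted p = 3.57e-05). LCN2, a siderophore-binding lipocalin, rose from 11.998 ± 1.97 to 23.3 ± 2.56 TPM (0.91, adjusted p = 0.00107), and LBP, the lipopolysaccharide-binding protein gene, from 1.17 ± 0.332 to 2.49 ± 0.0275 TPM (0.70, adjusted p = 0.0117, not called without siCTR replicate 1, where it was 0.57). A1BG, which encodes a plasma glycoprotein, fell from 10.5 ± 0.695 to 4.98 ± 0.187 TPM (-0.94, adjusted p = 0.000227), and APOC1, an apolipoprotein gene and the most abundant of the list, from 153.3 ± 9.36 to 85.8 ± 15.3 TPM (-0.84, adjusted p = 0.000861). The classical acute-phase genes CRP and HP were listed at 0 in all 6 libraries, and SAA1 was at 2.099, 1.97 and 2.55 TPM with siCTR and at 0.67, 4.09 and 1.20 TPM with siCEP20. CP overlaps HPS3 on the opposite strand, which was itself higher in every siCEP20 library, at 32.9, 43.6 and 48.8 TPM with siCTR and 65.8, 70.7 and 66.2 TPM with siCEP20. A1BG overlaps A1BG-AS1 on the opposite strand, which was at 3.41 to 4.51 TPM with siCTR and 1.60 to 3.90 TPM with siCEP20.

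Of 18 liver-type transcription factors 13 were tested, 5 were called higher and 2 lower, with a median of 0.44. Over all tested genes, 11.2% were called higher and 4.61% lower. With median-of-ratios scaling, quantile normalization and the length and GC correction, 3, 3 and 4 of the list were called higher and 2 lower each time. CEBPD, an acute-phase member of the C/EBP family, rose from 44.5 ± 0.201 to 78.6 ± 4.17 TPM (log2 fold change 0.81, limma adjusted p = 7.33e-05), and FOXA1, a pioneer factor, from 6.10 ± 0.333 to 10.4 ± 0.960 TPM (0.68, adjusted p = 0.00124). Another called higher, named after its values were seen, was HNF4A, from 8.27 ± 0.540 to 17.5 ± 3.84 TPM (0.98, adjusted p = 0.00125). CEBPA fell from 12.3 ± 1.13 to 7.67 ± 0.158 TPM (-0.61, adjusted p = 0.00158), and without siCTR replicate 1 (-0.56) it was not called. FOXA3 was at 1.79, 2.55 and 1.76 TPM with siCTR and at 0.71, 0 and 1.35 TPM with siCEP20 (-0.92, adjusted p = 0.0408), and its call was lost with any library but siCEP20 replicate 3 left out (-0.99 to -0.59). CEBPB, the most abundant, was at 599 ± 29.7 and 722 ± 32.9 TPM (0.27, adjusted p = 0.00603) and was not called. FOXA1 was called under none of the 3 scalings (0.51 to 0.56), with the same sign.

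Of 12 acute-phase signalling genes, all tested, 2 were called higher and 0 lower, with a median of 0.24. At an adjusted p under 0.05 alone, 5 were higher and 1 was lower. IL1R1, an interleukin-1 receptor chain, was at 7.68, 12.1 and 10.8 TPM with siCTR and at 17.1, 17.6 and 17.4 TPM with siCEP20 (log2 fold change 0.74, limma adjusted p = 0.00459), and was called under 1 of the 3 scalings (0.54 to 0.59). IL6, the cytokine that raises fibrinogen in liver, was at 17.99, 20.8 and 28.0 TPM with siCTR and at 33.2, 31.9 and 39.2 TPM with siCEP20 (0.64, adjusted p = 0.0113), and was called under none of the 3 scalings. Without siCTR replicate 1, neither IL1R1 (0.56) nor IL6 (0.50) was called, and IL6 was not called without siCEP20 replicate 3 (0.55). OSMR, a receptor chain for oncostatin M and the most abundant gene of the list, was at 172.2 ± 14.2 and 240.0 ± 7.56 TPM (0.48, adjusted p = 0.00106) and was not called. For STAT3, which carries the interleukin-6 signal to the nucleus, it was -0.03 (adjusted p = 0.701). SOCS3, named after its values were seen, was at 72.6 ± 4.21 TPM with siCTR and 54.1 ± 2.77 TPM with siCEP20. Its groups did not overlap, and it was not called.

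Of 15 genes that fold, carboxylate or transport plasma proteins, all tested, 0 were called in either direction by limma, 2 passed the adjusted p of 0.05 upwards and 1 downwards, and the median was -0.01. HSPA5, the main chaperone of the endoplasmic reticulum and the most abundant of them, was at 3176 ± 357 and 2600.1 ± 125.0 TPM (log2 fold change -0.28, adjusted p = 0.0213).

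Markers of other cell types summed to far less TPM than the epithelial markers in both groups. The 5 alveolar type II markers summed to 2.45 to 3.82 TPM with siCTR and to 0.95 to 1.44 TPM with siCEP20, nearly all of it LAMP3, with SFTPA1 listed at 0 in every library and SFTPB, SFTPC and NKX2-1 under 0.2 TPM. The 5 leukocyte markers summed to 7.41 to 10.9 and 7.26 to 8.86 TPM, nearly all of it CD14. The 5 megakaryocyte and platelet markers summed to 4.42 to 5.01 and 5.42 to 6.30 TPM, with PPBP at or under 0.083 TPM. The 4 endothelial markers, a cell type rich in THBD and PROCR, summed to no more than 0.15 TPM. The 5 fibroblast markers summed to 5.39 to 6.15 and 17.7 to 19.9 TPM, of which COL1A1 took nearly all. COL1A1 was called higher, at 5.52 ± 0.333 TPM with siCTR and 18.9 ± 1.15 TPM with siCEP20 (log2 fold change 1.61, limma adjusted p = 3.12e-05). COL1A2 and DCN were listed at 0 in every library. The part of any of these in the results above was not tested.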

How the data were processed

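RNA-seq of A549 cells was examined in 3 siCTR and 3 siCEP20 samples. The authors trimmed reads with fastp 0.20.1, aligned them to hg38 with HISAT2 2.1.0, assembled transcripts with StringTie 2.0 and deposited gene-level TPM. Their own test, DESeq2, needs read counts, which were not used here. TPM keeps no depth, so there are no counting intervals and the replicates alone set the precision.

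Genes were named and placed with GENCODE release 44. Log2(TPM + 1) of genes whose mean reached 1 TPM was compared with limma 3.58.1 in R 4.3.3 (eBayes with a trend, no replicate term), and p-values were adjusted over all 14778 tested genes by Benjamini-Hochberg. The step was tested on simulated data with independent normal noise, in which no low gene was changed. That simulation does not cover changes of low genes or values lost in a single library. Replicate numbers did not pair the samples (correlations of deviations of 0.16, -0.061 and -0.062). The members and lists were chosen with earlier results of these data known. CEP20, all members, up to 3 called genes per direction and the most abundant gene of each list, the 3 closest profiles and expressed neighbours were named, and further genes are given as values of what their list holds. Some genes that this rule names are not reported here, although the counts of their lists include them. Ratios and sums had two-sided exact permutation tests. The alternatives were median-of-ratios scaling, quantile normalization, a length and GC correction (loess span of 0.5), a pseudocount of 0.1, no filter or a mean of at least 5 TPM, eBayes without a trend, a replicate block, each library left out, and other thresholds. Python 3.11.15, numpy 2.4.6, pandas 2.3.3 and matplotlib 3.10.9 were used.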

Additional observations from a re-analysis of the deposited data

How the results depend on the processing

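FGB was called higher under all 17 alternatives, with log2 fold changes from 1.27 to 1.82, and C3 (0.76 to 0.98) and F3 (0.82 to 1.26) were called under all but a required fold change of 2, at which C3 (0.95), F3 (0.97) and CEP20 (-0.92) were not called and FGB alone was left (1 member). With adjusted p alone, 5 members passed, FGA (0.37) and FGG (0.57) among them. FGG was also called with a pseudocount of 0.1 (0.64). With a library left out, 3 to 4 members were called higher and 0 lower, FGG ran from 0.43 to 0.63, SERPINA1 from -0.66 to 0.10, CFB from -0.027 (without siCTR replicate 1) to 0.22, FGA from 0.22 to 0.49, and 16 to 21 list genes were called higher and 4 to 7 lower. Over all genes, 1381 to 1905 were then called higher and 613 to 706 lower, of 14733 to 14818 tested. CFB turned sign with median-of-ratios scaling (-0.021), quantile normalization (-0.052) and the length and GC correction (-0.031), and PROCR with median-of-ratios scaling (-0.056). Of the list genes, 19 were called higher, against 11 with median-of-ratios scaling, 12 with quantile normalization, 12 with the length and GC correction, 33 with adjusted p alone and 2 at a fold change of 2, where 0 were called lower. Apart from the scalings, which move the median of all genes, the causes were not tested. Over all genes, calls were 875 higher and 1122 lower with median-of-ratios scaling, 923 and 1016 (47.6% higher) with quantile normalization, 901 and 923 (49.4%) with the length and GC correction, and 261 and 147 at a fold change of 2. With the replicate number as a block, all-gene calls were 1654 and 694, against 1659 and 682, the ratios had exact p = 0.25 (the smallest for 3 pairs), no member changed its call, and list calls were 19 higher and 5 lower, while the block with the length and GC correction gave 12 list genes called higher and -0.031 for CFB. SERPINA1 and F3 had no value at a mean of at least 5 TPM. The depth behind low TPM is unknown, so values near 1 TPM are the least certain. Among them are those of F3, SERPINA1, FOXA3, LBP, PROC and EPCAM, and FGB in siCTR replicate 1.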
